A study of Mus musculus with 9 samples.

Results

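Cytochrome P450 enzymes of families 1 to 4, which oxidise drugs, toxins, steroids and fatty acids, were followed in mouse liver together with Por, the reductase that hands them electrons. Members were every gene on the array whose symbol in the platform annotation begins with Cyp, a family number from 1 to 4, a subfamily letter and a gene number, plus Por. Cyp4a10 and Cyp4a14 were left out by that rule. This gave 79 genes, 78 P450 genes and Por, among 22206 probe sets tested, and each gene had 1 probe set. RNA was taken from non-tumor liver of 9 male C57BL/6 mice at 40 weeks of age and measured on Clariom S arrays, 1 array per mouse, which give each gene a brightness summarised from many probes. WT mice were wild-type, with sibling littermates stated as the controls of the colony, MUP mice carried the MUP-uPA transgene, and HNK mice carried the same transgene and received honokiol at 10 mg/kg, 3 intraperitoneal injections per week for 8 weeks from week 32. All 3 groups (n = 3 each) ate a high-fat diet that began at 6 weeks, and the labels give a control treatment for WT and MUP. In MUP-uPA mice the promoter of a major urinary protein gene drives the protease uPA in hepatocytes, so that these cells are injured from early life, and the livers sampled at 40 weeks also bore tumors elsewhere. Honokiol was given only to transgenic mice, so that its effect in wild-type liver was not measured.

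P450 enzymes are heme proteins of the endoplasmic reticulum, and most of the liver's share of them lies in hepatocytes around the central vein. Each needs electrons from NADPH, which reach it through the P450 oxidoreductase encoded by Por, with cytochrome b5 as a second donor for some reactions. The receptors AhR, CAR, PXR and PPARα set the level of many of these genes, and in mice the pulsed growth hormone of males gives several of them a male-biased or female-biased level.

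The values were normalized intensities, and all levels below are their log2. The highest value of an array lay between 19.75 and 19.93, and no source says which step gave values of this range, so that levels and folds hold on the deposited scale only. Array medians lay between 5.52 and 5.62, and the median of 5222 negative control spots, which match no mouse transcript, lay between 4.91 and 5.10, which narrows the differences of genes near that level. Of the 79 members, 59 lay above the negative control median on all 9 arrays, 15 lay at or below it on all 9, and 5 lay above it on some. The 95th percentile of those spots was far higher, between 8.24 and 8.61. Below, a gene said to lie above the negative controls lies above their median only, and may still lie within their spread. The hepatocyte marker list had a median level of 18.66 to 19.09 over the 9 arrays and 0 of its 10 genes were called in any comparison. Kupffer cell markers had a median of 10.31 to 11.94 in WT, 7.63 to 9.56 in MUP and 7.28 to 9.49 in HNK, and sinusoidal endothelial markers 10.37 to 11.22, 10.06 to 11.05 and 9.62 to 10.03. Skeletal muscle markers were bright on MUP 2 (median 12.70) and HNK 3 (12.41), while the other 7 arrays held 4.19 to 5.16. Among 6 Kupffer cell markers Adgre1 fell in MUP against WT (log2 fold change -1.95) and all 6 means were lower, and of the other lists Fcgr2b of 5 sinusoidal and Colec11 of 6 stellate markers fell (-1.29 and -1.66), Alas2, the only red cell marker measured, rose (1.27), and 0 of 4 biliary, 5 lymphocyte, 4 adipocyte, 4 exocrine pancreas and 10 skeletal muscle markers were called in that comparison. Means were lower in MUP for all 5 sinusoidal markers (median log2 fold change -0.94). For stellate markers 5 of 6 were lower and 1 higher (median -0.88). All 4 biliary and all 10 skeletal muscle means were higher. In whole liver, fewer cells of a type and less RNA per cell cannot be told apart. The part of these marker differences in the results below was not tested, except that values without both MUP 2 and HNK 3 were computed.

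In MUP against WT, 13 of the 79 members (16.5 percent) rose and 3 (3.8 percent) fell at an adjusted p under 0.05 in limma, against 1.44 percent and 2.13 percent of all probe sets tested (3.58 percent in both directions). The 13 include Por, which was named through a list of genes that differ between these 2 groups on these arrays. Without Por, 12 of the 78 P450 members rose and 3 fell. At an unadjusted p under 0.05, 25 of the 79 members, Por among them, were higher and 14 lower, where 7.82 and 9.52 percent of all probe sets were. Groups did not overlap for 24 higher and 13 lower members, against 11.0 and 12.5 percent of all probe sets. These include Cyp2j11, Cyp2t4 and Cyp2b19, below the negative controls on all 9 arrays, and Cyp1b1, above them on 1. Cyp2t4 and Cyp2b19 are also among those at an unadjusted p under 0.05. Of the 59 members above the negative controls on all 9 arrays, 33 did not overlap. The shares above are over all probe sets, dim ones included. No share was computed over probe sets as bright, so that the part of brightness in this count was not tested. The 13 that rose were Cyp1a2, Cyp2a4, Cyp2a5, Cyp2c23, Cyp2c54, Cyp2d9, Cyp2d12, Cyp2d13, Cyp2d37-ps, Cyp4a12a, Cyp4a12b, Cyp4f14 and Por, and the 3 that fell were Cyp2b9, Cyp2c38 and Cyp2c55. All 16 lay above the negative controls on all 9 arrays, and 0 of the 20 dimmer members were called. The median log2 fold change was 0.19 over the 79 members and 0.00 over all probe sets. Changes ran both ways between and within subfamilies: Cyp2d members were called in 1 direction, 1 Cyp2b member was called lower, and Cyp2c held called members of both directions. The count of lower calls depended on single arrays: it was 1, 0 and 0 without WT 1, WT 2 and WT 3, 1 and 0 without MUP 2 and MUP 3, and 1 without both MUP 2 and HNK 3.

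**Figure D1:**
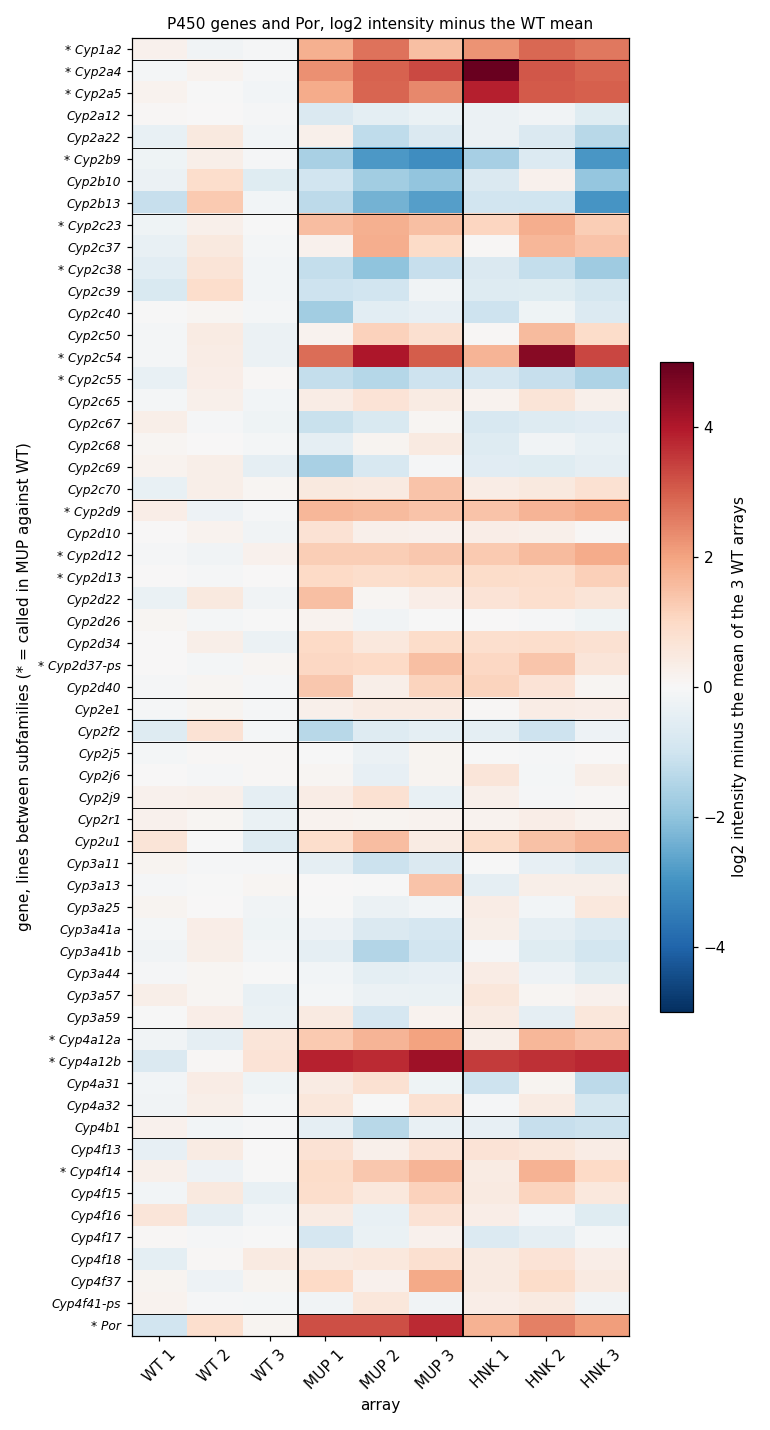
Heat map of the 59 members above the negative controls on all 9 arrays (rows, grouped by subfamily) on each array (columns), coloured by log2 intensity minus the mean of the 3 WT arrays. Asterisks mark the 16 genes called in MUP against WT, and the Cyp2a4, Cyp2a5, Cyp2c54, Cyp4a12b and Por rows are red on all MUP and HNK arrays.

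Among the Cyp1 genes, Cyp1a2 rose and Cyp1a1 and Cyp1b1 were dim. Cyp1a2, which metabolises caffeine and aromatic amines, lay at 13.52, 13.13 and 13.22 in WT, 15.07, 16.01 and 14.81 in MUP and 15.54, 16.14 and 15.92 in HNK. All MUP and HNK arrays were above all WT arrays, and MUP was 4.02-fold higher than WT, with a log2 fold change of 2.01 (limma adjusted p = 0.00345, SE 0.28). Cyp1a1, the classical AhR target that is low in uninduced liver, lay between 3.07 and 4.07 on all 9 arrays, below the negative controls, so that no fold is given. Cyp1b1, the other AhR-responsive gene, lay above the negative controls on 1 of 9 arrays, at 5.43 in HNK 3. Ahr itself, the receptor for dioxins and related ligands, had 8.88, 9.02 and 9.69 in WT, 7.72, 8.29 and 8.32 in MUP and 7.92, 8.44 and 8.78 in HNK, and its log2 fold change of -1.09 (limma adjusted p = 0.0695, SE 0.30) in MUP against WT was not called, although the groups did not overlap.

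In the Cyp2a subfamily, Cyp2a4 and Cyp2a5 rose while Cyp2a12 and Cyp2a22 were not called. Cyp2a5 encodes coumarin 7-hydroxylase and Cyp2a4 a steroid 15α-hydroxylase with female-biased expression, and the genes are close copies. Cyp2a4 lay at 11.08, 11.35 and 11.15 in WT, 13.48, 14.14 and 14.48 in MUP and 16.15, 14.31 and 14.10 in HNK. Cyp2a5 lay at 15.36, 15.16 and 15.04 in WT, 17.04, 18.09 and 17.59 in MUP and 19.09, 18.26 and 18.19 in HNK. Neither gene had any WT array within the range of MUP or HNK. The log2 fold changes in MUP against WT were 2.84 (limma adjusted p = 0.00555, SE 0.44) and 2.38 (limma adjusted p = 0.00143, SE 0.28), which is 7.17-fold and 5.22-fold. HNK 1 was the highest array for both. Cyp2a12, a bile acid and testosterone hydroxylase, had a log2 fold change of -0.53 (adjusted p = 0.106) with groups that did not overlap, and Cyp2a22 had -0.57 (adjusted p = 0.499).

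The sequences just before the start of Cyp2a4 and Cyp2a5 are shown because these copies rose together while the measured genes beside them fell or were not called. They are the 250 bases before each RefSeq start on the plus strand of GRCm38.p6, at chr7:26306942-26307191 and chr7:26835089-26835338, and capitals mark the bases that differ or, at 1 end of each, have no partner.
Cyp2a4: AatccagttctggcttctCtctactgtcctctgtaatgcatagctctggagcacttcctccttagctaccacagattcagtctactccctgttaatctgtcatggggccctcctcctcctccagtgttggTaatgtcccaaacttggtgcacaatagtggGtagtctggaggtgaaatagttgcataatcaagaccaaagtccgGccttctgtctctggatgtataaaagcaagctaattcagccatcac
Cyp2a5: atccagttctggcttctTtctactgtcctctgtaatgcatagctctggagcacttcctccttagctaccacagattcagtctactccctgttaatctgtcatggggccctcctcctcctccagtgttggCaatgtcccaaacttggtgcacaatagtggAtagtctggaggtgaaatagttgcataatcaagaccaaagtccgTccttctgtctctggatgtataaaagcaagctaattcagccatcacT
Of the aligned bases 245 are the same and 4 differ (98.4 percent the same). The probe sequences were not used here, and whether the probe sets of such close copies read each other was not tested.

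Of 5 Cyp2b genes 1, Cyp2b9, fell in MUP, and Cyp2b10, Cyp2b13 and Cyp2b23 had lower means that were not called. Cyp2b9 and Cyp2b13 are female-biased steroid hydroxylases, and Cyp2b10 is the standard target of CAR. Cyp2b9 lay at 16.42, 16.91 and 16.55 in WT, 15.01, 13.77 and 13.52 in MUP and 14.98, 15.93 and 13.71 in HNK. MUP and WT did not overlap, and Cyp2b9 was 5.76-fold lower in MUP, with a log2 fold change of -2.53 (limma adjusted p = 0.0161, SE 0.49), but without WT 1, WT 2, WT 3 or MUP 3 the adjusted p was 0.0582, 0.0636, 0.0635 and 0.0712. Cyp2b13 lay at 9.11, 11.55 and 10.12 in WT, 8.96, 7.88 and 7.51 in MUP and 9.31, 9.27 and 7.33 in HNK, and its log2 fold change of -2.15 (limma adjusted p = 0.0976, SE 0.64) was not called. Cyp2b10 lay at 10.12, 11.28 and 9.81 in WT, 9.45, 8.65 and 8.41 in MUP and 9.69, 10.62 and 8.48 in HNK, and its log2 fold change of -1.56 (limma adjusted p = 0.129, SE 0.51) was not called either. For both, every MUP array was below every WT array. Across Cyp2b9, Cyp2b10 and Cyp2b13, MUP 1 was the highest MUP array and WT 2 the highest WT array. Cyp2b23, near the negative controls, had -0.36, and Cyp2b19 lay below them on all 9 arrays, so that no difference is given.

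At the starts of Cyp2b9 and Cyp2b13, windows of 250 bases, at chr7:26173159-26173408 and chr7:26061245-26061494 on the plus strand of GRCm38.p6, differ at 2 positions, in capitals (248 bases and 99.2 percent the same). The genes begin at 26173350 and 26061388 in RefSeq, so that the end of each window lies inside the gene. These windows are shown as the near-identical pair with the lowest log2 fold changes of the subfamily.
Cyp2b9: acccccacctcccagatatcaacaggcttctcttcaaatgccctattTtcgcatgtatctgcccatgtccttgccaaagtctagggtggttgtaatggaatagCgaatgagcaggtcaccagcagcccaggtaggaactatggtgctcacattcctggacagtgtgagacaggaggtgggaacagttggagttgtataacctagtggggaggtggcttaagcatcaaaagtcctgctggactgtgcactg
Cyp2b13: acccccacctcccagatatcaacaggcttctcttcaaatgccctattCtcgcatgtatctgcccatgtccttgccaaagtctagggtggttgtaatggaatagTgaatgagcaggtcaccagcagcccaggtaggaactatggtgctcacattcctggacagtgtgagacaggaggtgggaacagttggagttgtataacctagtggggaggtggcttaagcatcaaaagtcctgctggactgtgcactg
Both Cyp2a and Cyp2b genes lie in 1 cluster on chromosome 7, where the RefSeq order of those measured is Cyp2b10, Cyp2b13, Cyp2b9, Cyp2a4, Cyp2b23, Cyp2b19, Cyp2a5, Cyp2a22 and Cyp2a12. Along it, Cyp2b9 fell by 2.53 on the log2 scale, the next measured member Cyp2a4 rose by 2.84, and Cyp2b23 and Cyp2b19, which stand between Cyp2a4 and Cyp2a5, were not called.

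The 14 Cyp2c genes held 2 that rose and 2 that fell, and their median log2 fold change was 0.08. Cyp2c54, a linoleate and arachidonate epoxygenase, lay at 9.73, 10.19 and 9.52 in WT, 12.60, 13.85 and 12.85 in MUP and 11.52, 14.38 and 13.14 in HNK. It was 9.74-fold higher in MUP than in WT, with no overlap and a log2 fold change of 3.28 (limma adjusted p = 0.00917, SE 0.57), and without WT 3 the adjusted p was 0.0516. Cyp2c23, another arachidonic acid epoxygenase, lay at 14.86, 15.35 and 15.06 in WT, 16.63, 16.87 and 16.58 in MUP and 16.16, 16.91 and 16.32 in HNK, with the 3 WT arrays below all others and a log2 fold change of 1.60 (limma adjusted p = 0.00264, SE 0.21). Cyp2c38 lay at 13.87, 15.05 and 14.25 in WT, 13.21, 12.36 and 13.25 in MUP and 13.65, 13.22 and 12.63 in HNK. Its MUP arrays were all below its WT arrays and its log2 fold change was -1.45 (limma adjusted p = 0.0422, SE 0.35), and without WT 1, WT 2, WT 3, MUP 1, MUP 2 or MUP 3 the adjusted p was 0.0578, 0.138, 0.116, 0.0751, 0.113 and 0.0762. It was also lost with the floor at the negative controls (0.0556), without the variance trend (0.0544), with the replicate block (0.0629) and without both MUP 2 and HNK 3 (0.0725). Cyp2c55 lay at 6.18, 6.92 and 6.61 in WT, 5.39, 5.16 and 5.52 in MUP and 5.73, 5.40 and 5.03 in HNK, close to the negative controls in MUP and HNK, again with no overlap between MUP and WT. Its log2 fold change was -1.21 (limma adjusted p = 0.0289, SE 0.26), and without WT 2, WT 3, MUP 1, MUP 2 or MUP 3 the adjusted p was 0.105, 0.109, 0.0726, 0.0815 and 0.0646. Without both MUP 2 and HNK 3 it was 0.0655. Neighbours of Cyp2c54 in sequence, Cyp2c37 and Cyp2c50, had 0.99 and 0.71 and were not called (adjusted p = 0.284 and 0.333). Cyp2c70, which makes the muricholic acids of mouse bile, had 0.79 (adjusted p = 0.138), with all MUP arrays above all WT arrays.

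In the Cyp2d subfamily, 4 of the 9 genes rose and 0 fell, and 8 of the 9 had a higher mean in MUP. Cyp2d9, the male-specific steroid 16α-hydroxylase, lay at 17.41, 16.83 and 17.02 in WT, 18.74, 18.67 and 18.49 in MUP and 18.52, 18.79 and 18.95 in HNK. It was 2.93-fold higher in MUP than in WT, with a log2 fold change of 1.55 (limma adjusted p = 0.0012, SE 0.18), and no WT array reached the other groups. Cyp2d12 lay at 12.98, 12.88 and 13.28 in WT, 14.29, 14.26 and 14.38 in MUP and 14.35, 14.61 and 14.91 in HNK, and Cyp2d13 at 16.63, 16.55 and 16.61 in WT, 17.60, 17.48 and 17.55 in MUP and 17.51, 17.49 and 17.80 in HNK. The log2 fold changes of these 2 were 1.27 (limma adjusted p = 0.00416, SE 0.19) and 0.94 (limma adjusted p = 0.0042, SE 0.14), and WT again lay apart from both other groups. Cyp2d37-ps, annotated as a pseudogene, lay at 11.50, 11.40 and 11.57 in WT, 12.51, 12.50 and 12.99 in MUP and 12.54, 12.87 and 12.11 in HNK, with 1.18 (limma adjusted p = 0.0145, SE 0.22), and without WT 1, WT 2, WT 3 or MUP 3 the adjusted p was 0.0626, 0.0588, 0.0582 and 0.0636. Cyp2d26 lay at 18.40, 18.22 and 18.30 in WT, 18.49, 18.14 and 18.28 in MUP and 18.33, 18.23 and 18.10 in HNK, with overlapping groups and a 95% interval of the log2 fold change of -0.31 to 0.30. Cyp2d10, Cyp2d22, Cyp2d34 and Cyp2d40 had 0.40, 0.63, 0.81 and 0.91 and were not called. Cyp2d11 is named only in the gene table of the study through which Por was named, not in the platform annotation, and is not counted here. The 9 genes are similar in sequence, and how far their probe sets read each other was not tested.

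Outside these subfamilies, 0 of the other 15 Cyp2 genes were called. Cyp2e1, which oxidises ethanol, acetone and paracetamol and makes reactive oxygen species, lay at 19.37, 19.59 and 19.37 in WT, 19.71, 19.85 and 19.86 in MUP and 19.51, 19.80 and 19.76 in HNK. All MUP arrays were above all WT arrays, with a log2 fold change of 0.36 (limma adjusted p = 0.177, SE 0.13), but this probe set lay within 0.6 of the highest value on its array and its differences may be compressed. Cyp2u1, a fatty acid hydroxylase with male-biased expression in liver, lay at 11.52, 10.86 and 10.20 in WT, 11.74, 12.41 and 11.27 in MUP and 11.84, 12.34 and 12.55 in HNK, with overlapping groups and 0.94 (limma adjusted p = 0.193, SE 0.36). Cyp2f2, a periportal enzyme that activates naphthalene in lung, had -0.83 (adjusted p = 0.234). Of 7 Cyp2j genes, which make epoxides of arachidonic acid, 4 were below the negative controls on all 9 arrays. Cyp2j5, Cyp2j6 and Cyp2j9, which lay above them, had log2 fold changes of -0.05, -0.06 and 0.25. Cyp2j5 was among the steadiest members, at 16.68, 16.83 and 16.82 in WT, 16.75, 16.49 and 16.92 in MUP and 16.75, 16.74 and 16.79 in HNK, with a 95% interval of -0.38 to 0.27. Cyp2r1, a vitamin D 25-hydroxylase, had 0.16, with an interval of -0.27 to 0.59.

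None of the 9 Cyp3a genes was called at an adjusted p under 0.05 in limma, and 2 of them, Cyp3a11 and Cyp3a41b, had an unadjusted p under 0.05, both lower in MUP. A lower mean in MUP was seen for 8 of the 9, with a median log2 fold change of -0.34. That median is the value of Cyp3a16, 1 of the 8, which lay above the negative control median on only 2 of 9 arrays and at or below it on all 3 MUP arrays. Cyp3a11, the main PXR target and the counterpart of human CYP3A4, lay at 18.33, 18.15 and 18.15 in WT, 17.76, 17.13 and 17.49 in MUP and 18.17, 17.79 and 17.57 in HNK. The MUP arrays were all below the WT arrays, and the log2 fold change of -0.75 (limma adjusted p = 0.0576, SE 0.19) did not pass. Cyp3a41a, Cyp3a41b and Cyp3a44, female-biased copies, had -0.61, -0.97 and -0.34, with no overlap between MUP and WT for all 3 (adjusted p = 0.312, 0.116 and 0.563). Cyp3a41a and Cyp3a44 lay below the 95th percentile of the negative controls on every array, and Cyp3a41b on every array but WT 2. Cyp3a13 was the exception, at 0.47, with MUP 3 at 14.64 and the other 8 arrays between 12.78 and 13.51.

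Short stretches before the starts of Cyp2c and Cyp3a genes are shown because they share a motif. A site for the hepatocyte factor HNF4α, CAAAGTCCA on either strand, was found in 10 of the 63 members whose RefSeq window of 300 bases (250 before the start and 50 after) was given, which is 15.9 percent against 0.555 percent of 27025 genes. The windows of 5 are printed as 29 bases on the strand of the gene, with the motif in capitals, at chr19:39886826-39886854, chr19:40187332-40187360, chr5:145879945-145879973, chr5:145469804-145469832 and chr5:145584807-145584835 of GRCm38.p6, all on the minus strand.
Cyp2c69: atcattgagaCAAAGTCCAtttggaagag
Cyp2c70: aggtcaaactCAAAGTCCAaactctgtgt
Cyp3a11: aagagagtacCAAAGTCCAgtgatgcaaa
Cyp3a16: aagagacgacCAAAGTCCAggtgatgcag
Cyp3a41b: aagagacgacCAAAGTCCAggtgatgcag
The other 5 were Cyp2c40, Cyp2c65, Cyp2c67, Cyp2c68 and Cyp3a41a, so that the 10 belong to 2 subfamilies of related copies and are not independent. In MUP against WT 0 of the 10 were called, and their log2 fold changes ran from -0.97 in Cyp3a41b to 0.79 in Cyp2c70. Hnf4a lay at 12.26, 12.34 and 12.27 in WT, 12.25, 12.34 and 12.26 in MUP and 11.58, 11.70 and 11.90 in HNK. WT and MUP overlapped closely, and all HNK arrays were below all others (-0.55 in HNK against MUP, unadjusted p = 0.006, adjusted p = 0.998 from limma). A motif match is a description of these letters only, and the start used for a window can lie inside the gene, as for Cyp2b9 and Cyp2b13. Another 8 motifs were searched on both strands of the same windows. The DR1 direct repeat, searched in a form that shares the letters CAAAG with the HNF4α site, was in 3 members (4.76 percent, against 0.115 percent of all windows), all of them Cyp2d genes with Cyp2d9 as the only one called. The HNF6 site ATTGATTT was in 6 (9.52 against 1.39 percent), the C/EBP site TTGCNCAA in 4 (6.35 against 3.37 percent), the STAT site TTCNNNGAA in 4 (6.35 against 9.55 percent) and the AhR core GCGTG in 13 (20.6 against 35.2 percent). The D-box TTANGTAA, bound by Dbp and its relatives, was in 1, Cyp2c38 (1.59 against 2.72 percent), and the HNF1 palindrome and the DR4 direct repeat were in 0.

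Cyp4 enzymes hydroxylate the ends of fatty acids and eicosanoids, and 3 of the 19 members rose. Cyp4a12b lay at 9.53, 10.30 and 10.92 in WT, 14.12, 13.98 and 14.50 in MUP and 13.75, 13.88 and 14.03 in HNK, and Cyp4a12a at 13.07, 12.83 and 13.88 in WT, 14.59, 14.98 and 15.25 in MUP and 13.56, 14.94 and 14.68 in HNK. These are male-biased arachidonic acid hydroxylases and close copies, and how far the probes of each read the other was not tested. Cyp4a12b had the largest log2 fold change of the 79 members in MUP against WT, 3.95 (limma adjusted p = 9.84e-05, SE 0.30), or 15.5-fold, and Cyp4a12a had 1.68 (limma adjusted p = 0.0263, SE 0.36). No MUP array was within the WT range for either. For Cyp4a12a, without WT 1, WT 2, MUP 2 or MUP 3 the adjusted p was 0.111, 0.0962, 0.0623 and 0.0974, and without both MUP 2 and HNK 3 it was 0.057. Cyp4a31 and Cyp4a32 had 0.32 and 0.43 and were not called. Among 10 Cyp4f genes, which inactivate leukotriene B4 and hydroxylate long-chain fatty acids, Cyp4f14 rose. It lay at 13.98, 13.49 and 13.73 in WT, 14.64, 15.07 and 15.45 in MUP and 14.14, 15.46 and 14.72 in HNK, with WT below both other groups and 1.32 (limma adjusted p = 0.0379, SE 0.31), and without WT 1, WT 2, WT 3, MUP 2, MUP 3 or HNK 3 the adjusted p was 0.09, 0.123, 0.126, 0.0826, 0.136 and 0.0505. The floor at the negative controls (0.0507), a fit without the variance trend (0.0522) and leaving out both MUP 2 and HNK 3 (0.0846) ended this call too. Cyp4f15 and Cyp4f37 had 0.85 and 1.03 (adjusted p = 0.103 and 0.159) with groups that did not overlap. Cyp4b1 had -0.74 (adjusted p = 0.228).

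Por rose in MUP. It lay at 9.58, 11.39 and 10.67 in WT, 13.75, 13.75 and 14.26 in MUP and 12.28, 13.07 and 12.62 in HNK, so that the 3 groups did not overlap, with HNK between WT and MUP. MUP was 10.4-fold higher than WT, with a log2 fold change of 3.38 (limma adjusted p = 0.00114, SE 0.38) and an exact two-sided permutation p of 0.1, the smallest that 3 against 3 arrays allow. This probe set carries no symbol in the platform annotation and was named through a table in which the study listed genes that differ between MUP and WT on these arrays, so that its change in this comparison is not independent evidence. Since that choice used the WT and MUP arrays, the values of Por in HNK against MUP and HNK against WT are open to the same selection. WT 1 was the lowest array, at 9.58. Among the other carriers of electrons and membrane partners, Cyb5a, Cyb5b, Cyb5r3, Pgrmc1 and Pgrmc2, 0 of 5 were called, all 5 had lower means in MUP, and their log2 fold changes lay between -0.80 and -0.06.

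**Figure D2:**
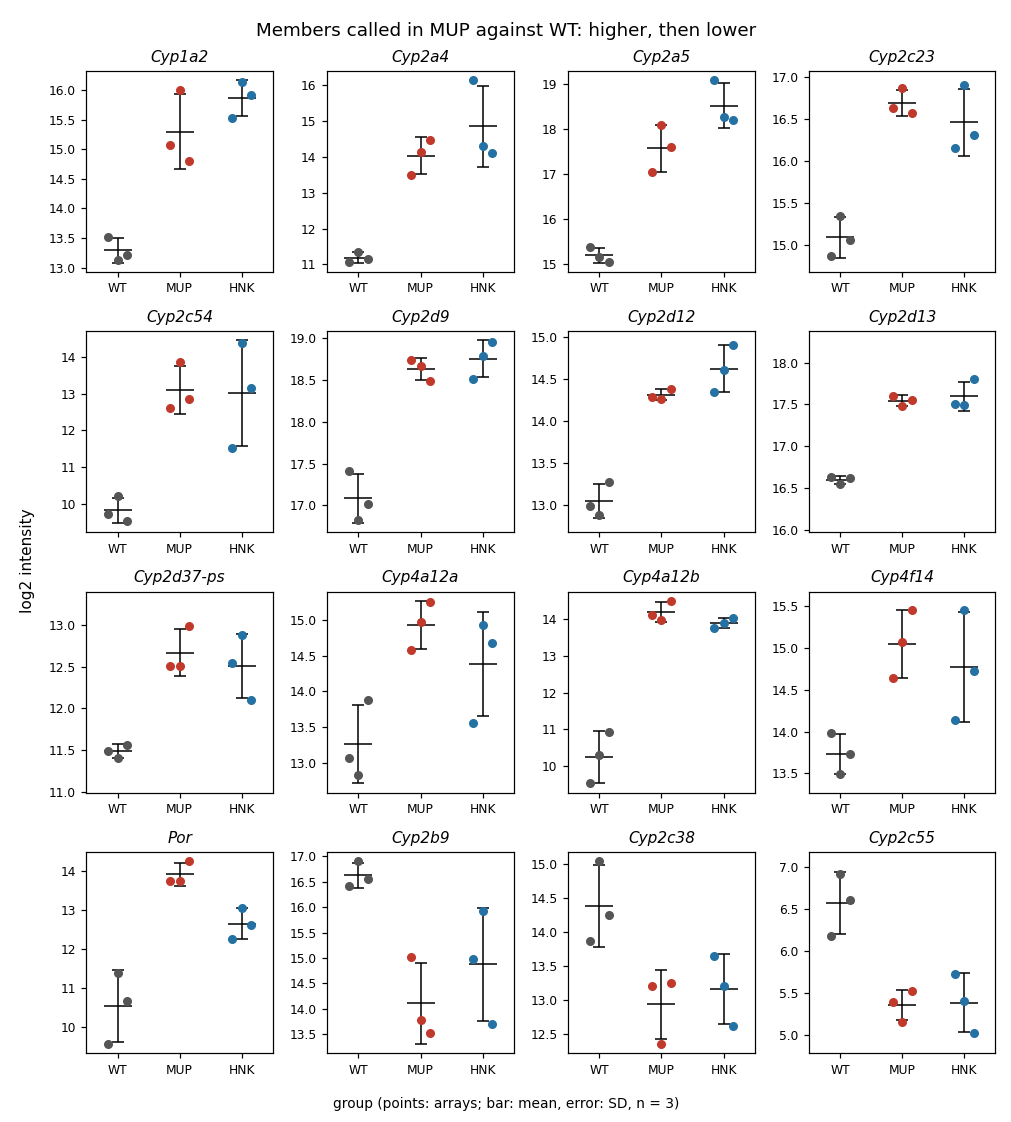
Log2 intensity (vertical axes, each with its own range) of the 16 members called in MUP against WT, by group; points are arrays, bars are means and error bars are SD (n = 3). In all 16 panels the MUP points lie wholly on 1 side of the WT points.

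Several lists of genes were then set beside these changes. Of 4 male-biased members, Cyp2d9, Cyp4a12a and Cyp4a12b rose and Cyp2u1 was not called, with a median log2 fold change of 1.61. Of 11 female-biased members, Cyp2a4 rose, Cyp2b9 fell and 9 were not called, and 10 of the 11 had lower means in MUP (median -0.84). Among these 10, Cyp3a16 lay above the negative control median on only 2 of 9 arrays. Cyp2c40, Cyp2c69, Cyp3a41a and Cyp3a44 lay below the 95th percentile of the negative controls on every array, and Cyp2c39 and Cyp3a41b on every array but WT 2. The median of -0.84 is the value of Cyp2c69, so that much of this pattern lies within the spread of the negative controls. All mice were male. Of 7 pericentral members, Cyp1a2, Cyp2a5 and Cyp2c54 rose, and Cyp2c37, Cyp2c50, Cyp2e1 and Cyp3a11 were not called. Of 6 other pericentral genes 1 rose, 1 fell and 4 were not called: Slc1a2, a pericentral glutamate transporter, rose by 2.56 (adjusted p = 0.000632 from limma), Gulo fell by 0.87 (adjusted p = 0.0377). Of 4 periportal genes all had higher means (median 1.18), and Hal and Cps1, of histidine breakdown and the urea cycle, rose by 2.25 and 1.24 (adjusted p = 0.00107 and 0.0102).

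Genes that control P450 levels were read next. Of 8 receptors and partners, Ahr, Arnt, Ahrr, Nr1i2 (PXR), Nr1i3 (CAR), Rxra, Ppara and Nr3c1, 0 were called in MUP against WT, where 2 had an unadjusted p under 0.05: Ahr, given above, and Rxra at 0.71 (adjusted p = 0.124 from limma). Nr1i2 and Nr1i3 had 0.10 and 0.20. Of 7 hepatocyte transcription factors, Prox1 rose, at 11.54, 11.07 and 11.00 in WT, 12.11, 12.14 and 12.39 in MUP and 11.95, 12.18 and 12.23 in HNK, with 1.01 (limma adjusted p = 0.0179, SE 0.20). Onecut1, which encodes HNF6, had 2.69 (limma adjusted p = 0.0508, SE 0.67) and was not called, although all its MUP arrays were above its WT arrays. Of 7 sex and clock regulators Dbp and Tef rose and 5 were not called. Dbp, the clock-driven activator that is known to act on Cyp2a5 in mice, lay at 9.14, 13.07 and 10.27 in WT, 15.11, 15.40 and 15.10 in MUP and 15.05, 15.23 and 15.25 in HNK and rose, with 4.37 (limma adjusted p = 0.00617, SE 0.70). Tef, a relative of Dbp, had 1.49 (limma adjusted p = 0.0102, SE 0.26). No source used here gives the hour at which each liver was taken. Bcl6 and Cux2, repressors linked with sex-biased genes, had -1.01 (adjusted p = 0.21) and 0.23, the latter below the negative controls.

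Targets of AhR, CAR and PXR outside the P450 families were called in both directions. Of 10 measured, Ces2a rose and Aldh1a1, Aldh1a7 and Slco1a4 fell. Slco1a4, a transporter of organic anions, lay at 10.77, 12.01 and 10.92 in WT, 8.12, 8.01 and 8.99 in MUP and 8.59, 9.0 and 8.61 in HNK, with -2.86 (limma adjusted p = 0.00169, SE 0.35) and no overlap. Ces2a, a carboxylesterase, had 1.33 (adjusted p = 0.0152 from limma), Aldh1a1 -0.60 (adjusted p = 0.0424) and Aldh1a7 -0.81 (adjusted p = 0.0371). The AhR target Nqo1 and the CAR target Gadd45b had -0.44 and -0.57 and were not called.

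Heme supply was read from 7 synthesis genes, and 0 were called. Alas1, the rate-limiting enzyme, lay at 13.35, 16.38 and 15.97 in WT, 17.41, 17.25 and 17.29 in MUP and 15.37, 16.37 and 16.60 in HNK. All MUP arrays were above all WT arrays, WT 1 was far below the other WT arrays, and the log2 fold change of 2.08 (limma adjusted p = 0.0915, SE 0.61) did not pass. The other 6 had log2 fold changes from -0.34 to 0.41. Of 4 heme breakdown genes 0 were called, and Hmox1 had -0.94 (adjusted p = 0.544), with MUP 2 at 9.02.

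**Figure D3:**
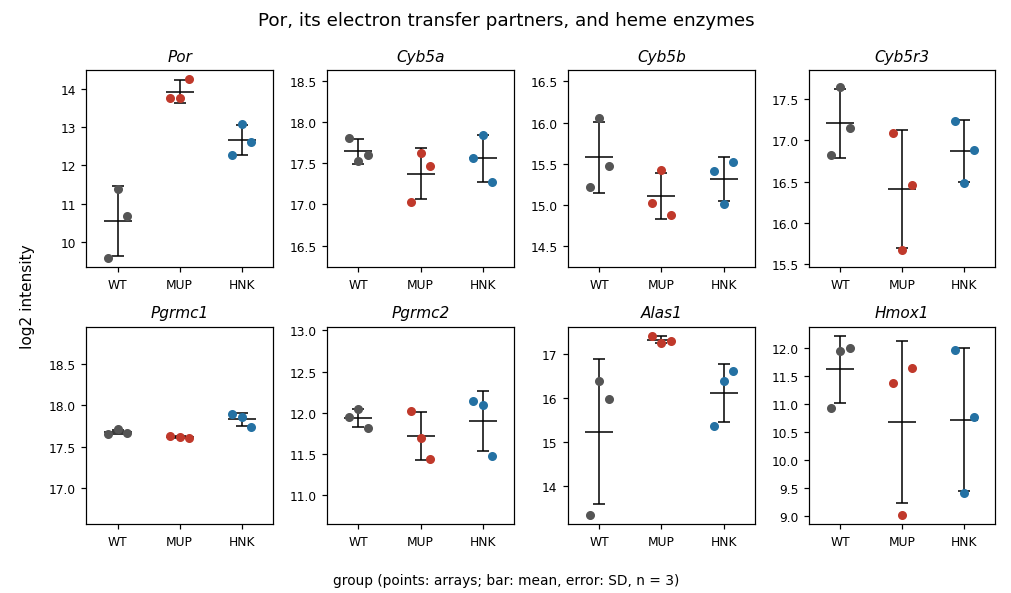
Log2 intensity (vertical axes, each with its own range) of Por, its electron transfer and membrane partners, Alas1 and Hmox1, by group; points are arrays, bars are means and error bars are SD (n = 3). The groups are separate for Por, while WT and MUP overlap for Cyb5a, Cyb5b, Cyb5r3, Pgrmc2 and Hmox1.

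In HNK against MUP 0 of the 79 members were called by limma, where 0.0045 percent of all probe sets were called higher and 0.0 percent lower, so that a call was rare throughout. At an unadjusted p under 0.05, 2 members were higher and 2 lower (2.53 percent each, against 2.09 and 2.27 percent of all probe sets). These counts depended on single arrays: higher and lower, they were 5 and 8 without HNK 2, 5 and 1 without HNK 3, 4 and 1 without HNK 1, 5 and 3 without MUP 1, 3 and 4 without MUP 2, 1 and 2 without MUP 3, 1 and 2 without WT 2, and 6 and 1 without both MUP 2 and HNK 3, with 0 called after adjustment in each. The lower ones were Por and Cyp4a31, and the higher ones Cyp2a5 and Cyp3a57. Por was 2.41-fold lower in HNK, with a log2 fold change of -1.27 (SE 0.38, 95% interval -2.10 to -0.44, unadjusted p = 0.00615, adjusted p = 0.998 from limma), and no HNK array reached the MUP range, a difference open to the selection of Por on high MUP and low WT values given above. Cyp4a31 lay at 9.25, 9.61 and 8.64 in MUP and 7.80, 8.99 and 7.53 in HNK, with overlap at HNK 2 and a difference of -1.06 (unadjusted p = 0.0149), which was -0.55 without both MUP 2 and HNK 3 and -1.50 without HNK 2. Cyp2a5 was 1.92-fold higher, with 0.94 (95% interval 0.33 to 1.55, unadjusted p = 0.00552), and its HNK arrays were all above its MUP arrays. Cyp3a57 had 0.53 (unadjusted p = 0.0464). Groups did not overlap for Cyp2a5, Cyp3a57 and Cyp1a1, which were higher in HNK, and for Por, which was lower, against 4.11 and 4.48 percent of all probe sets. Cyp1a1 lay below the negative controls on all 9 arrays, so that its separation is no measured difference.

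By subfamily, the median log2 difference of HNK against MUP was 0.49 in Cyp2a, 0.52 in Cyp2b, 0.02 in Cyp2c, 0.02 in Cyp2d, 0.33 in Cyp3a, -0.43 in Cyp4a and -0.10 in Cyp4f, and the median over all probe sets was -0.01. These medians include members not above the negative controls on all 9 arrays, among them Cyp2b19 and Cyp3a16. The 4 Cyp2b means other than that of Cyp2b19 and 8 of 9 Cyp3a means, that of Cyp3a16 included, were higher in HNK than in MUP, and 0 were called. The 95% interval of the difference stayed within 2-fold for 37 of the 59 members above the negative controls and reached past 2-fold for 22, among them Por, Cyp1a2, Cyp2a4, Cyp2a5, Cyp2b9 and Cyp2c54. Cyp2d26, Cyp2j5 and Cyp2e1 had narrow intervals of -0.39 to 0.23, -0.29 to 0.36 and -0.41 to 0.17, whereas that of Cyp1a2 ran from -0.04 to 1.19.

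**Figure D4:**
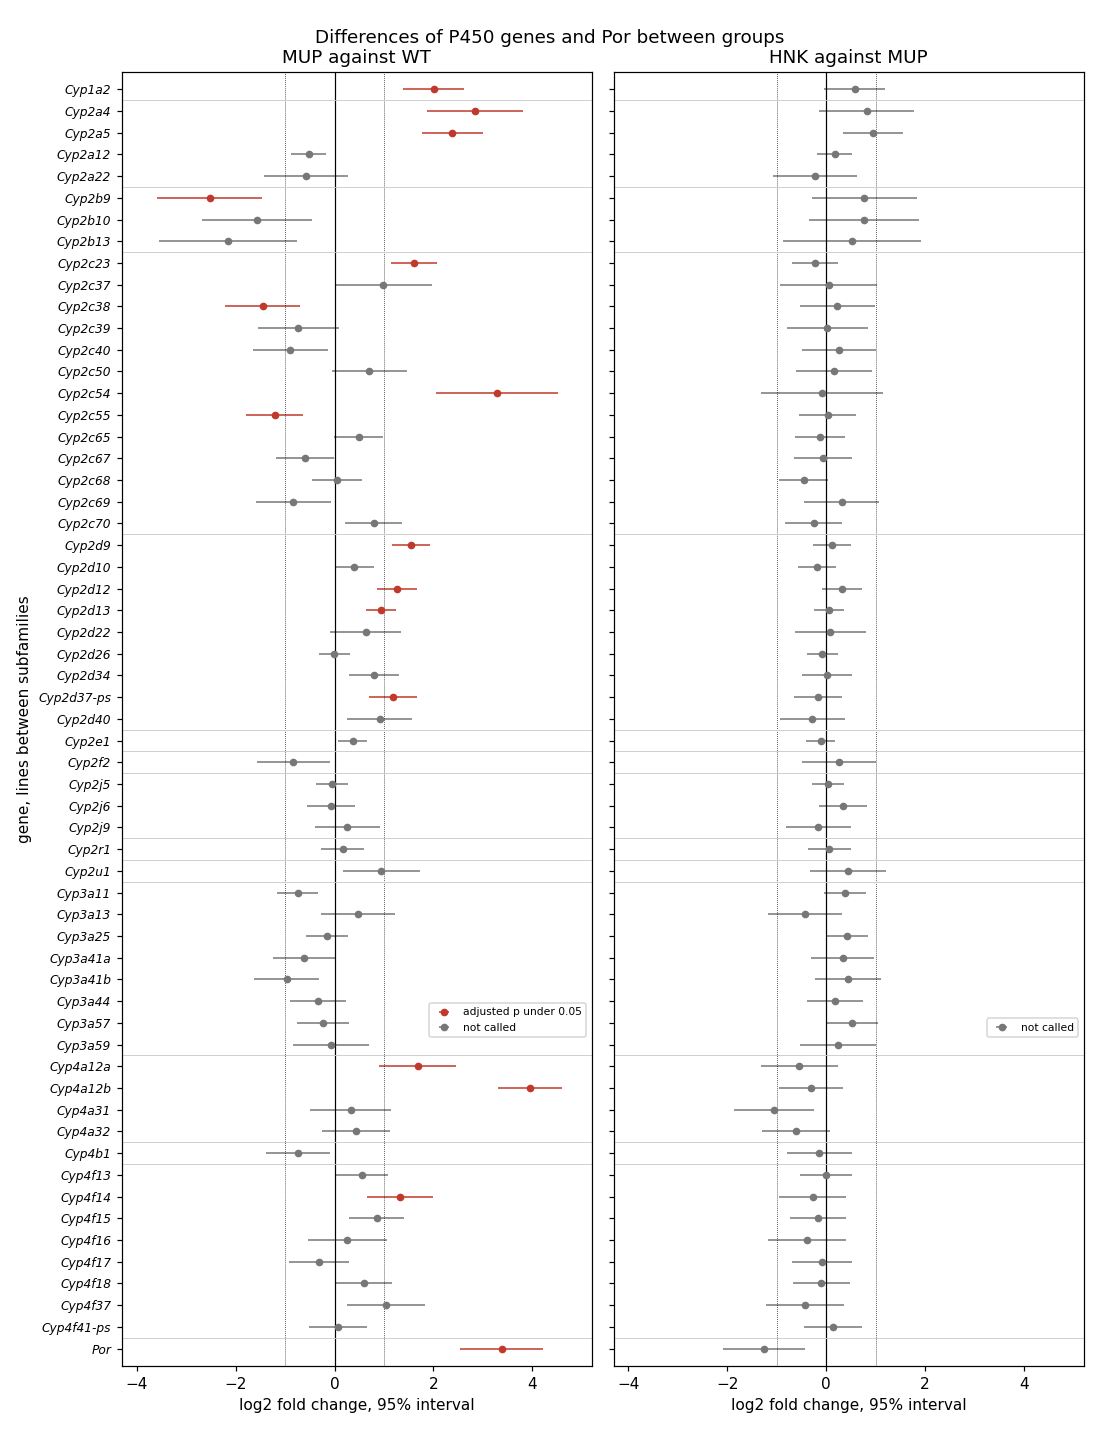
Log2 fold changes (points) with 95% intervals (bars) of the 59 members above the negative controls on all 9 arrays, grouped by subfamily, for MUP against WT and HNK against MUP; dotted lines mark 2-fold. The 16 genes in red passed an adjusted p of 0.05 in MUP against WT, and 0 passed in HNK against MUP.

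HNK against WT shares the WT arrays with the first comparison and the HNK arrays with the second. There, 11 members (13.9 percent) were higher and 1 (1.27 percent) lower, against 0.964 and 1.33 percent of all probe sets (2.29 percent in both directions). Without Por, which was selected on the WT and MUP arrays, 10 of the 78 P450 members were higher and 1 lower. At an unadjusted p under 0.05, 21 members were higher and 7 lower (6.07 and 8.02 percent of all probe sets), and groups did not overlap for 20 and 11 (9.37 and 11.1 percent). The latter include Cyp1a1, Cyp2s1, Cyp2b19 and Cyp2w1, below the negative controls on all 9 arrays, and Cyp2g1, above them on 3. Of the 59 members above them on all 9, 26 did not overlap, and here too no share over probe sets as bright was computed. The 11 called higher were the 13 that rose in MUP without Cyp4a12a and Cyp4f14, and the 1 called lower was Cyp2c55. Log2 fold changes were 3.66 for Cyp2a4, 3.64 for Cyp4a12b, 3.33 for Cyp2a5, 3.20 for Cyp2c54 and 2.58 for Cyp1a2, beside 2.84, 3.95, 2.38, 3.28 and 2.01 in MUP against WT. Por, subject to the same selection, had 2.11 (limma adjusted p = 0.0167, SE 0.38), and without WT 3 or HNK 2 the adjusted p was 0.0691 and 0.0533. For Cyp2c54, without WT 1, WT 3 or HNK 3 the adjusted p was 0.0718, 0.0785 and 0.0502. For Cyp2c55, at -1.18 (adjusted p = 0.0405), without WT 1, WT 2, WT 3, MUP 1, MUP 3, HNK 2 or HNK 3 the adjusted p was 0.0601, 0.149, 0.152, 0.0536, 0.0579, 0.092 and 0.129, and for Cyp2d37-ps, at 1.02 (adjusted p = 0.0377), without WT 1, WT 2, WT 3, HNK 1 or HNK 2 the adjusted p was 0.13, 0.122, 0.125, 0.0938 and 0.111, with 0.0574 under the replicate block and 0.0514 without the variance trend. Cyp2b9, which fell in MUP, had -1.76 (adjusted p = 0.0964), and Cyp2c38 -1.23 (adjusted p = 0.102). Beside these calls, Vsig4 and Adgre1 of 6 Kupffer cell markers (-3.03 and -1.97), Clec4g and Fcgr2b of 5 sinusoidal markers (-1.88 and -1.92) and Colec11 of 6 stellate markers (-1.58) fell in HNK against WT, and Epcam of 4 biliary markers rose (1.27). All 5 sinusoidal and all 6 stellate markers did not overlap between HNK and WT, with 5 stellate means lower and 1 higher, and 3 of the 6 Kupffer cell markers did not overlap either. Their part in the P450 results was not tested.

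Of the 13 members that rose in MUP, the HNK mean lay on the WT side of the MUP mean for 7 and beyond the MUP mean for 6, which were Cyp1a2, Cyp2a4, Cyp2a5, Cyp2d9, Cyp2d12 and Cyp2d13. For the 3 that fell, the HNK mean lay on the WT side. These positions were not tested, since they rest on the same MUP arrays as the calls. Mean levels (± SD, n = 3) of Por were 10.55 ± 0.91 in WT, 13.92 ± 0.29 in MUP and 12.65 ± 0.40 in HNK, and those of Cyp2a5 were 15.19 ± 0.16, 17.57 ± 0.53 and 18.51 ± 0.50.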

How the data were processed

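Liver RNA of 9 mice was measured on Clariom S arrays. Each deposited intensity is a value the authors had normalized. The labels name RMA and Affymetrix Expression Console, whose versions no source used here gives. Being linear, the values were turned to log2. Of 28846 rows, 6640 were controls and were dropped, and 22206 probe sets entered the tests. Symbols came from the platform annotation for 19572 probe sets. Of 2634 without one, 38, Por among them, were named through a gene table of the study. Sequences are from RefSeq (GRCm38.p6).

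A single limma model of all 9 arrays (limma 3.58.1, R 4.3.3, lmFit, eBayes with trend, residual degrees of freedom 6, prior 5.83) gave 3 comparisons, with two-sided p-values, Benjamini-Hochberg adjusted over all probe sets and called under 0.05. The fit was tested on simulated data. Members, gene lists and alternatives were chosen with earlier results of these data known. Named were called members, Por, the brightest and most changed members of each subfamily, the members with the smallest p in HNK against MUP, and up to 4 genes of a list, with others added as context after their values were seen. The 19 alternatives covered the arrays of both groups alone, a replicate block, array weights (statmod 1.5.0), dim probe sets, scaling, a floor at the negative controls, the variance trend, the methods' t-test and left-out arrays. Each array was taken as 1 animal from its label. No source ties arrays to batches, and 3 per group limit the precision. A limma p-value weighs a difference against the spread between arrays within the groups, joined with a prior spread drawn from all probe sets. Genes of similar sequence may share probe signal.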

Additional observations from a re-analysis of the deposited data

How the results depend on the processing

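The counts of members called, higher and lower, were 13 and 3 in MUP against WT, 0 and 0 in HNK against MUP and 11 and 1 in HNK against WT, and scaling by cyclic loess or by the median left these counts as they were. The methods' t-test called 0 members in each comparison after Benjamini-Hochberg adjustment, with 18 higher and 9 lower, 1 and 1, and 15 and 6 at an unadjusted p under 0.05. It left Por, at 3.38 in MUP and 2.11 in HNK against WT, with an adjusted p of 0.15 and 0.30. In MUP against WT, 5 members were lower with array weights and 1 without both MUP 2 and HNK 3. Leaving out 1 array gave 10 to 13 higher and 0 to 4 lower there, and 8 to 12 higher and 0 to 1 lower in HNK against WT. The lower count in HNK against WT, Cyp2c55 alone, was 0 with the arrays of both groups only, 0 with the replicate block, 2 with array weights and 0 without both MUP 2 and HNK 3.

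With the replicate number as a block, 14 and 4, 0 and 0, and 11 and 0 members were called, but Cyp2c38 in MUP against WT (adjusted p = 0.0629) and Cyp2c55 and Cyp2d37-ps in HNK against WT (0.0621 and 0.0574) were not. With the floor at the negative controls or without the variance trend, 12 and 2 were called in MUP against WT. Deviations of arrays with the same number correlated between -0.29 and 0.40, and those of arrays with different numbers between -0.46 and 0.54. Deviations sum to 0 within each group of 3 arrays, so that these correlations cannot tell whether the numbers pair the mice. Por kept its direction under all 19 alternatives, from 2.89 to 3.80 in MUP against WT and 1.63 to 2.53 in HNK against WT. It was not called in HNK against WT without WT 3 (adjusted p = 0.069) or without HNK 2 (0.053). Cyp1a1 lay below the negative controls in both groups of HNK against MUP. With values below those controls set to their median, its difference became -0.0041. That value is the difference of the control medians alone, the same for every member below them on all arrays, and is no reversal of Cyp1a1. Each member had 1 probe set, so that a mean over probe sets gave no separate value. With 3 arrays per group, half-widths of the 95% intervals had a median of 0.58 on the log2 scale.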
